A study of Mus musculus with 14 samples.

Results

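The oncofetal and liver cancer genes Afp, H19, Igf2, Gpc3, Sox4, Golm1, Mdk, Ly6d and Prom1 were followed across 14 mouse liver RNA-seq libraries. They are 9 of the 55427 genes of the expression table and were listed by name, with earlier results of these data known. Oncofetal genes are switched on in the liver of the fetus, shut down around birth, and can be expressed again in hepatocellular carcinoma or in regenerating liver. Some of their products are used as tumour or serum markers in patients. In these livers Sox4 was the member called higher on the high-AGE diet, and the classical oncofetal transcripts Afp, Igf2 and Gpc3 stayed below 1 scaled FPKM (fragments per length of exon and per depth, brought to a common scale over the libraries) in all 14 libraries.

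The study asked what advanced glycation end-products (AGEs), sugar adducts on proteins, add to a fatty liver. The 5 groups were RageHepKO mice on the high-AGE diet (n = 3), mice on this diet injected with pyridoxamine (HiAD + PM, n = 2), mice on the high-AGE diet with vehicle (HiAD, n = 3), mice on the fast-food diet (FFD, n = 3) and mice on chow (n = 3). By the paper, the mice of this RNA-seq experiment were not injected with the oncogene plasmids used elsewhere in the study. All were males put on diet at 8 to 10 weeks of age and fed for 14 weeks. By the paper, mice of the genotype named in the label RageHepKO carried Albumin-cre on floxed Rage alleles. This Cre acts in hepatocytes, so that other liver cells keep the receptor. The other 4 groups carried the floxed Rage alleles without a stated Cre. The HiAD is the FFD after cooking, mice on either diet drank high-fructose water, and pyridoxamine, an inhibitor of AGE formation, was injected at 60 mg per kg daily from week 5. Whole liver was sequenced, so that fewer cells of a type and less RNA per cell cannot be told apart.

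Some libraries went against their labels or stood apart. Ager, the gene of RAGE, was at 0.198 to 1.9 scaled FPKM in livers labelled RageHepKO, against 0.0811 to 0.184 in the HiAD livers of floxed mice, 2.49 to 2.75 in HiAD + PM, 2.47 to 2.78 on the FFD and 0.801 to 2.15 on chow. Mitochondrial genes took 24.3% to 53.1% of the summed FPKM in livers labelled RageHepKO, 14.5% to 16.8% in HiAD + PM, 14.1% to 22.1% on the HiAD, 6.06% to 10.1% on the FFD and 13.1% to 24.1% on chow. The histocompatibility gene H2-Bl did not exceed 0.0771 on the HiAD and was 2.59 or more in each of the 11 other libraries, while H2-Q1 was 10.8 to 29.3 on the HiAD and 3.66 or less elsewhere. Ager thus goes against the label RageHepKO when set beside the HiAD livers, and RageHepKO is used below as the label of those 3 libraries. The HiAD libraries were themselves apart from the 11 others in Ager, H2-Bl and H2-Q1. Every comparison with the HiAD rests on these HiAD libraries, so that the diet cannot be told apart from what else may set them apart. The part of these differences in the results was not tested, and the calls of members, and those of the lists that change, are also given without the libraries labelled RageHepKO. Chow library R2, which enters every comparison with chow, stood apart from chow R1 and R3. In R2 20 genes of the IGF axis summed to 5049 scaled FPKM, beside 547 and 521. Its 12 hepatocyte markers summed to 42852, beside 29774 and 28225. The labelled tissue was borne out by Alb, the albumin gene of hepatocytes, at 3014 to 9097 scaled FPKM in the 14 libraries.

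Sox4, on chromosome 13, encodes a transcription factor of the SRY box family that is active in embryonic progenitors and in many carcinomas. Afp encodes alpha-fetoprotein, the main plasma protein of the fetus, and lies next to Alb on chromosome 5. The RefSeq promoters below (GRCm38.p6, 250 bases before to 50 after the annotated start) are shown because Sox4 was the member called in most comparisons and because Afp and Alb, neighbours of one family, stood at opposite ends of the range of levels. RefSeq gave promoters for 6 of the 9 members. Capitals mark motifs searched on both strands, which did not overlap. In Sox4 they mark GGAATG, the core bound by TEAD factors, the DNA-binding partners of YAP. In Afp and Alb they mark GTTAAT, a core of the site of the hepatocyte factor HNF1, and TATAAA, the TATA box.
Sox4 promoter, chr13:28953650-28953949, minus strand: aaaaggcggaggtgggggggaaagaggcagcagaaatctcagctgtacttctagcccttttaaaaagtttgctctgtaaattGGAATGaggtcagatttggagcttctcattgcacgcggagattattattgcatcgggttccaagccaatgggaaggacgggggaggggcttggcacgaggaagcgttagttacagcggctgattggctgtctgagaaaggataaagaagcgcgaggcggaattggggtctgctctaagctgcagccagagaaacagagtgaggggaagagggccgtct
Afp promoter, chr5:90490464-90490763, plus strand: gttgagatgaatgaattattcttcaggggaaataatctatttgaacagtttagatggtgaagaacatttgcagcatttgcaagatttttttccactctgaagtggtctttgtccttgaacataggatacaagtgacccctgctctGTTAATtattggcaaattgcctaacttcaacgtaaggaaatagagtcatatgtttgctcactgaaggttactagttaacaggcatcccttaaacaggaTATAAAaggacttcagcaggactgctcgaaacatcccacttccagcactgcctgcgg
Alb promoter, chr5:90460620-90460919, plus strand: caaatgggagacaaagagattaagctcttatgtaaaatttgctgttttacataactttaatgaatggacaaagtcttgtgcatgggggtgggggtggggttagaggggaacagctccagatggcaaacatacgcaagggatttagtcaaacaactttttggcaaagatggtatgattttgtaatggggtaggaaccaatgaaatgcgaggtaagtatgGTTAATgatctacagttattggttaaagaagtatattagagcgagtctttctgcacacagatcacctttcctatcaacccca
The Sox4 window held GGAATG 1 time, starting 168 bases before the start, and 14.7% of all 32851 promoter windows held it on one strand or the other. Some windows of Igf2, a member with no call, held it too and are not shown. GTTAAT, present in 7.1% of windows, began 105 bases before the start of Afp and 32 bases before that of Alb. TATAAA, present in 13.6%, was found in the Afp window and not in that of Alb. These matches describe the letters and say nothing about binding.

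Sox4 was higher in HiAD livers than in every other group. It was at 1.16, 0.431 and 0.773 scaled FPKM in livers labelled RageHepKO, 0.586 and 0.416 in HiAD + PM, 2.76, 3.16 and 6.21 on the HiAD, 0.84, 0.313 and 0.742 on the FFD, and 0.583, 0.459 and 0.496 on chow. The 3 HiAD libraries lay above all 11 others, and the other 4 groups overlapped each other. Among the genes above 0 in a library, Sox4 ranked at the percentiles 66.7 to 76.8 on the HiAD and 25.8 to 45.2 elsewhere. The mean was 0.79 in livers labelled RageHepKO, 0.501 in HiAD + PM, 4.04 on the HiAD, 0.632 on the FFD and 0.513 on chow.

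**Figure D1:**
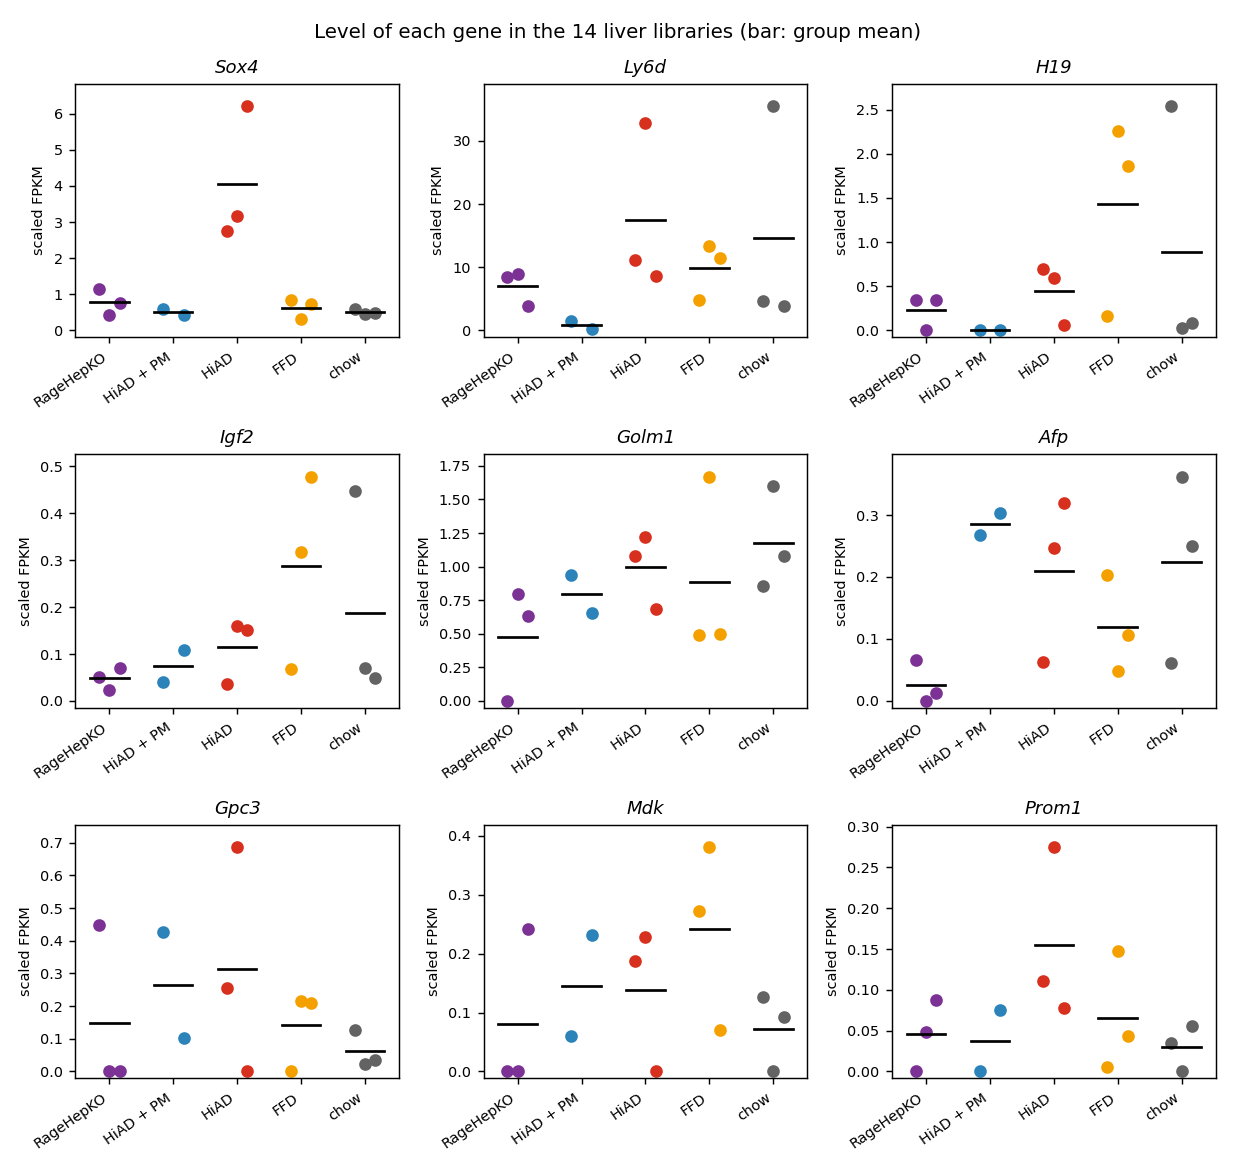
Scaled FPKM of the 9 genes (1 panel each, linear axes with their own range) in the RageHepKO, HiAD + PM, HiAD, FFD and chow libraries. Points are libraries and bars are group means. Sox4 is the panel in which the HiAD points, at 2.76 to 6.21, stand clear of all others, and the panels of Igf2, Afp, Gpc3, Mdk and Prom1 run no higher than 0.687.

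The diet comparison sets the HiAD against the FFD it is made from. The log2 fold change of Sox4, on the scale of scaled FPKM plus 1, was 1.58 ± 0.25 (SE, adjusted p = 0.0038) for HiAD against FFD. In this comparison 3.1% of the 12110 genes tested were called at an adjusted p under 0.05, and Sox4 was the 1 member called of the 4 that could be tested. To be tested a gene needed at least 1 scaled FPKM in at least 2 libraries. Sox4 reached this through the 3 HiAD libraries and 1 labelled RageHepKO, so that its high HiAD values were needed for it to be counted here. With no such filter, limma gave Sox4 an adjusted p of 0.0173 for HiAD against FFD. Against chow the log2 fold change was 1.68 ± 0.25 (adjusted p = 0.0024), where 4.62% of genes were called and Sox4 was again the 1 member called. For FFD against chow it was 0.09, with a 95% interval of -0.44 to 0.63 (adjusted p = 0.933), and none of the 4 members was called where 0.0661% of genes were. In that last comparison 8 genes were called in all and 1218 had an unadjusted p under 0.05 in limma.

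Sox4 was lower in the HiAD + PM livers and in the livers labelled RageHepKO than in the HiAD livers. By design these are the groups in which the study acted against AGEs or their receptor. Both overlapped the FFD and chow livers in Sox4, and the part of either step in its level was not tested. For HiAD + PM against HiAD the log2 fold change was -1.69 ± 0.28 (adjusted p = 0.0036), in a comparison with 6.45% of genes called. For RageHepKO against HiAD it was -1.45 ± 0.25 (adjusted p = 0.0015), in a comparison with 33.4% of genes called. For RageHepKO against HiAD + PM it was 0.24, with a 95% interval of -0.36 to 0.83 (adjusted p = 0.588), where 18.8% of genes were called. These comparisons share the 3 HiAD libraries, so that a high value in those libraries enters each of them. Library B3 had the highest value, and without it the log2 fold changes were 1.29, 1.39, -1.40 and -1.16 for HiAD against FFD, HiAD against chow, HiAD + PM against HiAD and RageHepKO against HiAD, all still called. The PM call was lost without HiAD + PM library R19 (adjusted p = 0.065). Without the libraries labelled RageHepKO the calls remained, with adjusted p = 0.0061 against FFD, 0.0035 against chow and 0.0048 for PM.

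**Figure D2:**
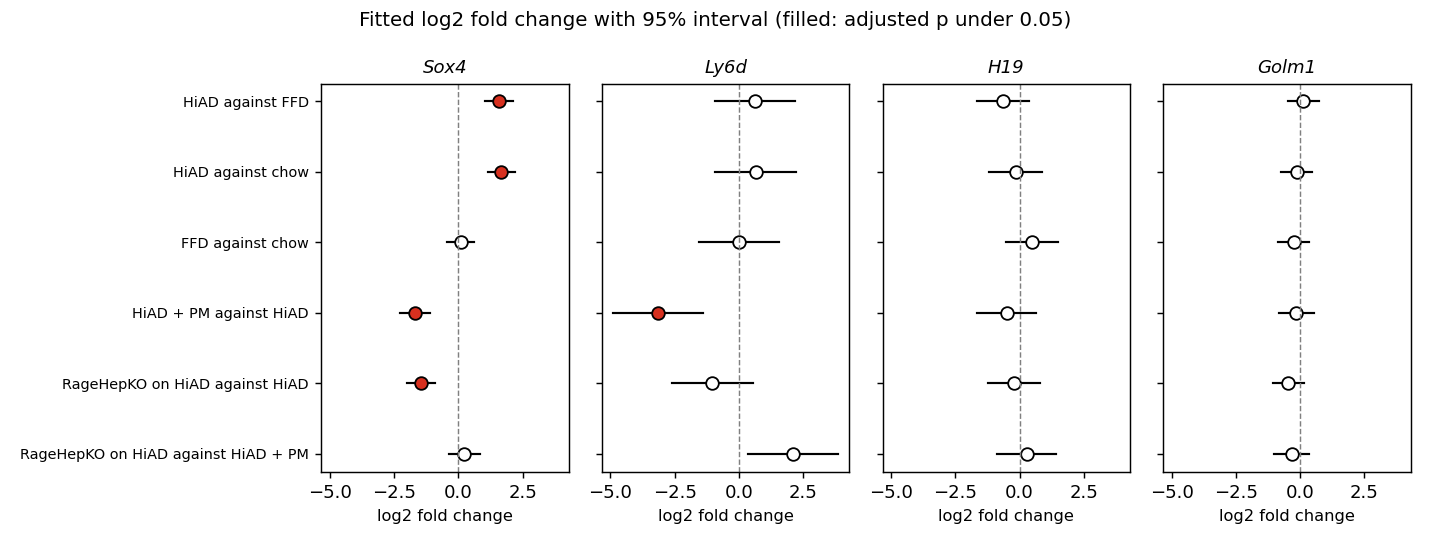
Log2 fold changes from limma (points) with 95% intervals (lines) for the 4 tested members in the 6 comparisons, where filled points have an adjusted p under 0.05. Sox4 has 4 filled points, at 1.58, 1.68, -1.69 and -1.45, Ly6d has 1 at -3.14, and the intervals of H19 and Golm1 cross 0 in every comparison.

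Another annotated gene covers the same bases as Sox4. Gm26735, a long non-coding RNA on the opposite strand (chr13:28943048-28951671, plus strand), has 2616 of its 2649 exon bases (98.8%) inside the 4795 exon bases of Sox4 (chr13:28948919-28953713, minus strand). Its level was 0.312 to 1.35 in livers labelled RageHepKO, 0.49 to 0.737 in HiAD + PM, 2.55 to 7.17 on the HiAD, 0.288 to 1.31 on the FFD and 0.507 to 0.629 on chow. Of all genes tested it had the pattern most like Sox4, with a Pearson r of 0.983 of log2 levels over the 14 libraries. The sources used here do not say that reads were counted by strand, so that reads of this pair cannot be told apart. The next most alike were Lamc3 (r = 0.967), which encodes a laminin gamma chain, and Chrnb1 (r = 0.960), which encodes a subunit of the muscle acetylcholine receptor. Lamc3 was at 1.62 to 4.47 scaled FPKM on the HiAD and 0.0618 to 0.657 elsewhere. Chrnb1 was at 0.693 to 1.88 on the HiAD and 0 to 0.464 elsewhere. Both passed the filter through HiAD libraries alone, so that their high r with Sox4 largely restates the high HiAD values.

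Bile duct cells are a known site of Sox4 expression in liver, and their summed markers were also highest in the HiAD libraries. The sum of 16 bile duct markers was 27.3 to 44.5 scaled FPKM in livers labelled RageHepKO, 20.9 to 29 in HiAD + PM, 104 to 165 on the HiAD, 27.3 to 34.6 on the FFD and 36.6 to 39.5 on chow. Within the HiAD it did not follow Sox4, at 104, 165 and 117 in B1, B2 and B3, where Sox4 was at 2.76, 3.16 and 6.21. Most of this sum was Spp1 (osteopontin), 59.2% to 82.9% of it in a library. The other 15 markers summed to 9.29 to 11.1 in livers labelled RageHepKO, 7.84 to 8.74 in HiAD + PM, 19.5 to 28.2 on the HiAD, 6.85 to 9.19 on the FFD and 7.14 to 12.3 on chow, so that the HiAD libraries were the highest without Spp1 too. Of the 10 markers that could be tested, 6 rose and 0 fell in HiAD against FFD, with a median log2 fold change of 1.07 beside 0.02 over all genes, of which 3.1% were called. Without the libraries labelled RageHepKO it was also 6 and 0, where 4.14% of all genes were called. Of the risers, Mmp7, Bicc1, Cldn7 and Epcam reached 1 scaled FPKM in HiAD libraries alone. High HiAD values were thus needed for these genes to be tested, and the count and the median are not free of this. Spp1 rose by 2.06 (adjusted p = 0.0019) and Mmp7 (matrilysin) by 1.85 (adjusted p = 0.0015). The defining keratins were low throughout, with Krt19 at 0.459 to 0.825 on the HiAD and 0.0279 to 0.728 elsewhere, and Krt7 at 0.185 to 0.358 on the HiAD and 0 to 0.133 elsewhere. The sum of 16 stellate cell and fibroblast markers was 85.5 to 119 on the HiAD and 37.1 to 69 in the other groups. The part of either cell type in the Sox4 level was not tested. Of the 11 other Sox genes on the list, 6 could be tested and none was called in the 3 diet comparisons or for PM. In RageHepKO against HiAD, where 33.4% of all genes were called, 3 of the 6 fell: Sox9 (-1.24, adjusted p = 0.0042), Sox12 (-1.35, adjusted p = 0.0090) and Sox18 (-1.10, adjusted p = 0.0473). Without the libraries labelled RageHepKO, Sox12 was called in HiAD against chow (1.24, adjusted p = 0.0301), where 7.25% of all genes were called. In the same fit Sox9 (-0.93, adjusted p = 0.0396), Sox12 (-1.17, adjusted p = 0.0493) and Sox13 (0.65, adjusted p = 0.0444) were called for PM, where 8.7% of all genes were called. Sox9, another progenitor and bile duct factor, had a log2 fold change of 0.86 (adjusted p = 0.108) in HiAD against FFD.

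**Figure D3:**
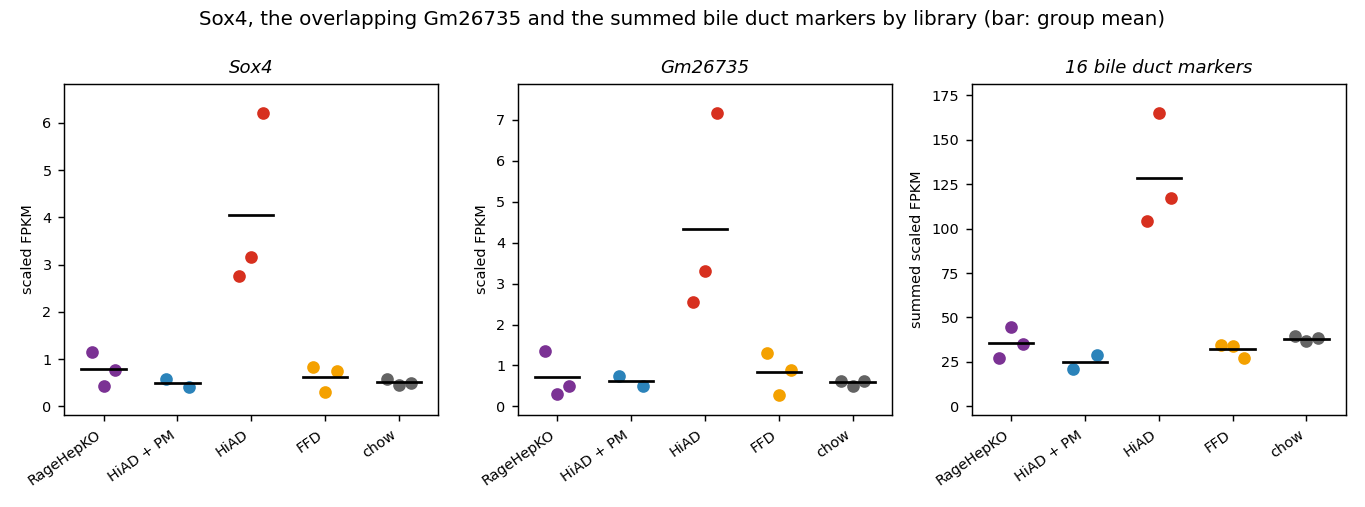
Sox4, the overlapping Gm26735 (both in scaled FPKM) and the summed scaled FPKM of 16 bile duct markers, by library, in the RageHepKO, HiAD + PM, HiAD, FFD and chow groups, with bars at group means. In each panel the 3 HiAD libraries are the highest, at 2.76 to 6.21, 2.55 to 7.17 and 104 to 165, the last of these mostly Spp1.

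Ly6d, on chromosome 15 (chr15:74762056-74763620, minus strand), encodes a lipid-anchored surface protein of the Ly6 family, known as a marker of early B cell commitment and of stratified epithelia. It was by far the most abundant member, with a median of 8.56 scaled FPKM over the 14 libraries. It was at 8.53, 8.97 and 3.82 in livers labelled RageHepKO, 1.57 and 0.245 in HiAD + PM, 11.1, 32.8 and 8.58 on the HiAD, 4.81, 13.4 and 11.4 on the FFD, and 4.7, 35.5 and 3.87 on chow. Both HiAD + PM libraries lay below all 12 others, and the other 4 groups overlapped. Within a diet the spread was wide, and the highest library of all was chow R2, which stood apart in other genes too.

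For HiAD + PM against HiAD the log2 fold change of Ly6d was -3.14 ± 0.80 (SE, adjusted p = 0.0378). The call was close to its threshold. It was lost without HiAD library B1 (adjusted p = 0.0675), B2 (0.111) or B3 (0.0565), without HiAD + PM library R18 (0.118) or R19 (0.342), and without FFD library R31 (0.0503) or R32 (0.0529), while the fold change stayed between -3.66 and -2.59. It was also lost without the libraries labelled RageHepKO (adjusted p = 0.052) and with no filter on low values (adjusted p = 0.105). The log2 fold change was 0.64 for HiAD against FFD (adjusted p = 0.712), 0.65 for HiAD against chow (adjusted p = 0.669) and 0.01 for FFD against chow (adjusted p = 0.997), with intervals about 3 log2 units wide, as from -0.92 to 2.20 in HiAD against FFD. RageHepKO against HiAD gave -1.03 (adjusted p = 0.289). Livers labelled RageHepKO lay above HiAD + PM without overlap, with a log2 difference of 2.11 (adjusted p = 0.0867), which did not pass the threshold.

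Ly6d is also known from B cells and plasmacytoid dendritic cells, and markers of these cells were followed beside it. The sum of 11 such markers was 148 to 291 in livers labelled RageHepKO, 205 to 209 in HiAD + PM, 91.6 to 146 on the HiAD, 187 to 334 on the FFD and 121 to 136 on chow. One gene, Bst2, made up 82.9% to 88.8% of the sum in HiAD + PM and 50.8% to 73.9% on the HiAD. The other 10 markers summed to 23 to 35.6 in HiAD + PM and 27.5 to 46.1 on the HiAD, and these ranges overlapped. Of the 7 markers tested for HiAD + PM against HiAD none was called, with a median log2 fold change of 0.04, where 6.45% of all genes were called. Without the libraries labelled RageHepKO, where 8.7% of all genes were called, Bst2 alone was, at 1.31 (adjusted p = 0.0264). The part of B cells in the Ly6d level was not tested. Of the 26 other Ly6 family genes, 6 could be tested. None was called in the 3 diet comparisons, and for PM, where 6.45% of all genes were called, 1 rose and 1 fell. The genes most like Ly6d over the 14 libraries were Arl4a (r = 0.821), an ARF-like GTPase, Cd9 (r = 0.813), a tetraspanin, and A530088E08Rik (r = 0.812).

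H19 and Igf2 are neighbouring imprinted genes on chromosome 7, H19 (chr7:142575529-142578143) a non-coding RNA made from the maternal copy and Igf2 (chr7:142650766-142666816) a fetal growth factor made from the paternal copy, and both are abundant in fetal liver. H19 was at 0.34, 0 and 0.348 scaled FPKM in livers labelled RageHepKO, 0 and 0 in HiAD + PM, 0.69, 0.593 and 0.0596 on the HiAD, 0.168, 2.26 and 1.86 on the FFD, and 2.54, 0.0261 and 0.083 on chow. The 3 libraries above 1 were FFD R31 and R32 and chow R1, both HiAD + PM libraries were listed at 0, and the other 4 groups overlapped each other. H19 was called in none of the 6 comparisons. Its log2 fold change was -0.65 ± 0.47 (SE, adjusted p = 0.548) for HiAD against FFD and 0.49 ± 0.47 (adjusted p = 0.772) for FFD against chow.

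Igf2 was at 0.052, 0.0243 and 0.07 in livers labelled RageHepKO, 0.0408 and 0.108 in HiAD + PM, 0.0358, 0.159 and 0.152 on the HiAD, 0.0682, 0.318 and 0.478 on the FFD, and 0.447, 0.0697 and 0.0482 on chow. The 3 libraries with the highest Igf2, at 0.318 to 0.478, were the 3 with the highest H19, and they came from FFD and chow mice. Since these 3 libraries stand apart from the other 11, no correlation of H19 with Igf2 is given. Igf2 did not reach the filter on low values. Its exons are shared in part with Gm49394, a read-through gene with 3596 of its 4738 exon bases inside Igf2, which was also highest in these 3 libraries, at 0.692 to 0.97.

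**Figure D4:**
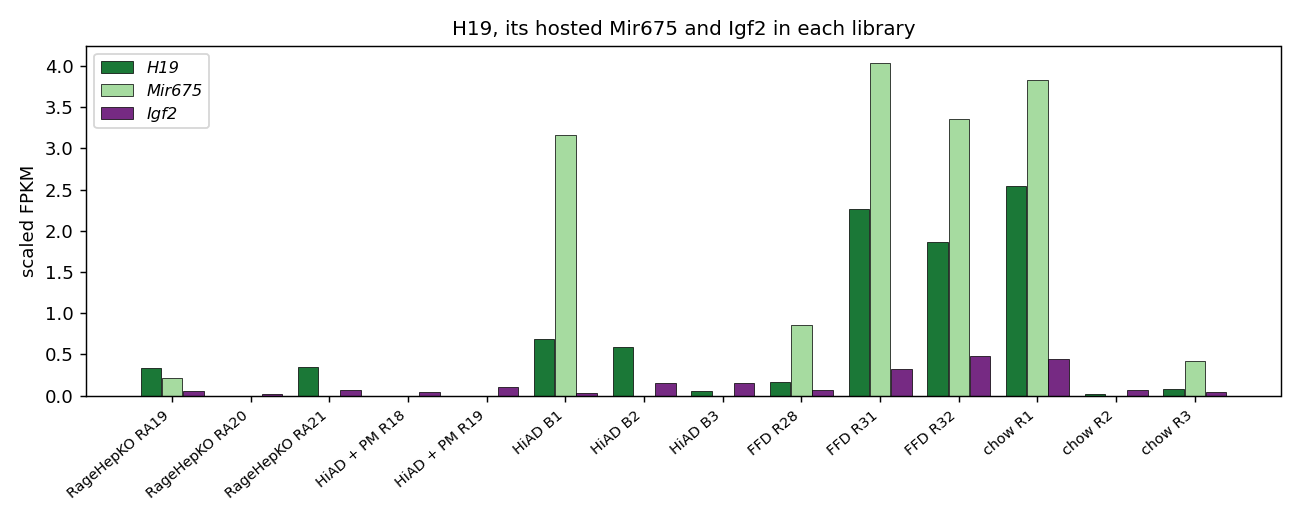
Scaled FPKM of H19, of the microRNA gene Mir675 that lies inside H19, and of Igf2 in each of the 14 libraries, ordered as RageHepKO, HiAD + PM, HiAD, FFD and chow. H19 exceeds 1 in FFD R31 (2.26), FFD R32 (1.86) and chow R1 (2.54), where Igf2 is also highest, and HiAD B1 shows Mir675 at 3.16 beside H19 at 0.69.

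Mir675, whose 84 bases all lie in H19, was among the genes most like H19 (r = 0.881), and its reads cannot be told from those of its host. The others were Gm24245 (r = 0.949) and Sap30l (r = 0.753). Gm24245 was at 2.57 in FFD R31, 1.71 in FFD R32 and 1.98 in chow R1, and at most 0.459 elsewhere. Correlations with H19 thus lean on the libraries with high H19 and are a description only. Of 33 other imprinted genes 10 could be tested, and 1 rose and 0 fell in HiAD against FFD, with a median log2 fold change of 0.14, where 3.1% of all genes were called. The riser was Dcn (decorin, a matrix proteoglycan) at 1.17 (adjusted p = 0.0181), which is also a stellate cell marker. Of 20 genes of the IGF axis 14 could be tested, and 0 rose and 1 fell. That gene was Igfals, which encodes the acid-labile subunit that holds IGFs in the circulation, at -1.24 (adjusted p = 0.0189). In RageHepKO against HiAD, where 33.4% of all genes were called, 2 imprinted genes rose and 3 fell, and 2 IGF axis genes rose and 3 fell. Without the libraries labelled RageHepKO, Cdkn1c (0.97, adjusted p = 0.0277) of the imprinted genes and Ide (0.92, adjusted p = 0.0409) of the IGF axis were also called in HiAD against FFD, beside Dcn and Igfals. Of all genes 4.14% were called there. The other 4 tested genes around H19 and Igf2 on chromosome 7, Ctsd, Mrpl23, Cd81 and Tssc4, had no call in the diet comparisons or for PM.

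Golm1 (chr13:59634626-59675811, minus strand) encodes a Golgi membrane protein that is shed into serum in liver disease. It was at 0, 0.795 and 0.63 scaled FPKM in livers labelled RageHepKO, 0.939 and 0.657 in HiAD + PM, 1.08, 1.22 and 0.683 on the HiAD, 0.488, 1.67 and 0.495 on the FFD, and 0.856, 1.6 and 1.08 on chow. All pairs of groups that were compared overlapped, and Golm1 was called in none of the 6 comparisons. Its log2 fold change was 0.13 for HiAD against FFD, with a 95% interval of -0.47 to 0.73 (adjusted p = 0.861), which is narrower than that of Ly6d. RageHepKO against HiAD gave -0.47 ± 0.28 (SE, adjusted p = 0.211), and the RageHepKO mean includes 1 library listed at 0. Of its exon bases 1297 are also exons of Naa35 on the other strand. The genes most like it were Leprot (r = 0.888), Cd38 (r = 0.849) and Ccpg1 (r = 0.840), and of 10 tested Golgi and prominin relatives none was called in HiAD against FFD, where the lowest adjusted p was that of Furin (0.126, and 0.0325 without the libraries labelled RageHepKO).

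Afp (chr5:90490737-90508907, plus strand) was near the bottom of the range, although Alb next to it was among the most abundant transcripts. Afp was at 0.0664, 0 and 0.0128 scaled FPKM in livers labelled RageHepKO, 0.267 and 0.304 in HiAD + PM, 0.0636, 0.246 and 0.32 on the HiAD, 0.203, 0.049 and 0.106 on the FFD, and 0.0617, 0.362 and 0.25 on chow. The HiAD, FFD and chow ranges overlapped, and the libraries labelled RageHepKO lay below both HiAD + PM libraries. In a fit of all 27549 genes with a value above 0, RageHepKO against HiAD + PM gave a log2 difference of -0.33 for Afp (unadjusted p = 0.0228, adjusted p = 0.174), and HiAD against FFD gave 0.11 (adjusted p = 0.79). Alb had 0.73 ± 0.32 (adjusted p = 0.284) in HiAD against FFD. Of 21 regulators of Afp and genes of the albumin family 19 could be tested, and none was called in the 3 diet comparisons or for PM. For RageHepKO against HiAD 0 rose and 6 fell, where 33.4% of all genes were called. Zhx2 and Zbtb20, which repress Afp in the adult mouse liver, were too low to be tested, at 0.009 to 0.545 and 0.153 to 0.631.

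Gpc3 (chrX:52272426-52613950, minus strand) encodes glypican 3, a heparan sulfate proteoglycan of the cell surface and a target of liver cancer therapy. It was at 0.449, 0 and 0 scaled FPKM in livers labelled RageHepKO, 0.426 and 0.102 in HiAD + PM, 0.255, 0.687 and 0 on the HiAD, 0, 0.216 and 0.209 on the FFD, and 0.127, 0.0232 and 0.036 on chow. It was listed at 0 in 4 of the 14 libraries, in 3 groups. Gpc4, its relative next to it on the X chromosome, was measured at 7.34 to 27.9 in every library, and HiAD against FFD gave -0.55 on the log2 scale for it (adjusted p = 0.319). Of 19 other glypicans and heparan sulfate enzymes 12 could be tested and none was called in HiAD against FFD. Furin, which is also on this list, was the 1 called without the libraries labelled RageHepKO, where 4.14% of all genes were called.

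Mdk (chr2:91929805-91932297, minus strand) encodes midkine, a secreted heparin-binding growth factor of the embryo. It was at 0, 0 and 0.242 scaled FPKM in livers labelled RageHepKO, 0.0605 and 0.231 in HiAD + PM, 0.187, 0.229 and 0 on the HiAD, 0.273, 0.381 and 0.0703 on the FFD, and 0.126, 0 and 0.092 on chow. All 5 groups overlapped. Of 16 genes for pleiotrophin and the receptors of midkine 10 could be tested, and 1, the syndecan gene Sdc3, had a call in HiAD against FFD (-1.54, adjusted p = 0.047), where 3.1% of all genes were called. This call was lost without the libraries labelled RageHepKO (adjusted p = 0.0558). The other 9 were not called there, with Ptprb at 0.81 (adjusted p = 0.0697) and Lrp1 at -0.66 (adjusted p = 0.0842).

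Prom1 (chr5:43993620-44102032, minus strand) encodes prominin 1, or CD133, a membrane protein of progenitor and bile duct cells. It was at 0, 0.0486 and 0.0876 scaled FPKM in livers labelled RageHepKO, 0 and 0.0749 in HiAD + PM, 0.111, 0.275 and 0.0774 on the HiAD, 0.00597, 0.148 and 0.0437 on the FFD, and 0.0343, 0 and 0.0557 on chow. The HiAD libraries lay above the chow libraries without overlap, at levels far below 1. They also lay above HiAD + PM, but only by 0.0774 in B3 beside 0.0749 in R19. In the FPKM as deposited R19 (0.0839) was above B3 (0.0754), so that this separation depends on the scaling. Without the filter on low values the log2 fold change was 0.16 for HiAD against chow (unadjusted p = 0.039, adjusted p = 0.35) and 0.11 for HiAD against FFD (adjusted p = 0.606). None of the 5 members below the filter was called in any of the 6 comparisons by this unfiltered fit. At this scale a change in a gene near 0 is held close to 0 by the added 1, and depth is unknown, so that such changes were not detectable rather than absent.

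The members that could be tested passed the filter of 1 scaled FPKM in at least 2 libraries through different libraries. Sox4 passed through the HiAD libraries and 1 RageHepKO library, H19 through FFD R31 and R32 and chow R1, Golm1 through 5 libraries of 3 diets, and Ly6d through 13 of 14. A gene that passed only where it was high had to differ, and the count of called members is read with this in mind.

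Other genes known from fetal liver or liver cancer were followed beside the 9. Of 48 such genes 25 could be tested, and 7 rose and 0 fell in HiAD against FFD (3.1% of all genes called), 8 rose and 0 fell against chow (4.62% of all genes called), and none was called in FFD against chow. In HiAD against FFD the 25 had a median of 0.76 on the log2 scale, beside 0.02 over all genes tested. The list was written with earlier results of these data known, so that these counts are not independent of those results. Those that rose were Spp1, Nqo1 (a quinone reductase) at 1.59 (adjusted p = 0.0027), Ccnd1 (cyclin D1) at 1.79 (adjusted p = 0.0033), Lpl (lipoprotein lipase) at 2.52 (adjusted p = 0.0072), and Epcam, Cd24a and Akr1b7, which were named after their values were seen. Epcam and Akr1b7 were at most 0.98 and 0.89 scaled FPKM outside the HiAD, so that they passed the filter through HiAD libraries alone. Spp1, Epcam and Cd24a are also bile duct markers, and the level of these markers is given beside Sox4.

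In HiAD + PM against HiAD 0 of these 25 genes rose and 8 fell, where 6.45% of all genes were called. In RageHepKO against HiAD 2 rose and 12 fell, where 33.4% of all genes were called. Nqo1 had -2.05 with PM (adjusted p = 6.26e-04) and -1.19 in livers labelled RageHepKO (adjusted p = 0.0027). Ccnd1 had -1.53 in livers labelled RageHepKO (adjusted p = 0.0018) and -0.70 with PM (adjusted p = 0.215). Without the libraries labelled RageHepKO 7 rose and 1 (Glul, glutamine synthetase) fell in HiAD against FFD, where 4.14% of all genes were called. In the same fit 0 rose and 8 fell with PM, where 8.7% of all genes were called. Proliferation genes were near 0, and only 2 of 12, Aurka and Ccna2, could be tested, neither of them called in any comparison. Among cell type markers in HiAD against FFD, none of 12 tested hepatocyte, 11 endothelial, 7 B cell, 1 mesothelial and 3 pancreas and gut markers was called, 2 of 15 stellate markers rose, and 3 of 14 macrophage and 1 of 5 erythroid markers fell, where 3.1% of all genes were called. Without the libraries labelled RageHepKO, where 4.14% of all genes were called, the B cell list had 1 lower call, Bst2 (-1.14, adjusted p = 0.0467), the mesothelial marker Gpm6a was called higher (0.70, adjusted p = 0.042), and the other counts in the preceding sentence were the same. Gpm6a too passed the filter through the HiAD libraries alone.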

How the data were processed

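Liver RNA from 14 mice was sequenced with a SMARTER mRNA kit. The values deposited by the authors were read as FPKM, inferred from values that are not whole (2 of 256628 positive values were whole numbers) and whose sum times exon length is nearly constant, although the table is named as raw counts. The authors describe mapping to GRCm38 with Dropseq tools, but the sources used here do not say how FPKM were made. Read depth is therefore unknown, and precision rests on the spread between mice. No source used here says that reads were counted by strand.

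The table had 55583 entries. Removing 129 exact repeats and 27 entries whose names had turned into dates left 55427 genes, and 0 value columns were left unmapped. Scale factors were trimmed means of log ratios, with 30% of genes left out at each end, over the 6522 genes that reached 1 FPKM in all libraries. Genes with at least 1 scaled FPKM in at least 2 libraries, 12110 in all, were tested on log2(scaled FPKM + 1) with limma 3.58.1 in R 4.3.3 (trend, robust), 1 fit of 5 group means, 6 contrasts and Benjamini-Hochberg adjustment over all genes tested. Calls have an adjusted p under 0.05. The tests were tried on simulated data first. voom, which the authors used, needs counts and was not used.

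The genes named are the 9 members, up to 4 tested genes of each list with the smallest p in HiAD against FFD, and the 3 genes whose log2 levels correlate best with each tested member over the 14 libraries. Genes beside a member, keratins, Ager, H2-Bl, H2-Q1, Zhx2, Zbtb20, Epcam, Cd24a, Cldn7, Akr1b7 and Glul were named outside this rule, after their values were seen. The members and the 20 gene lists, written by hand, were chosen with earlier results of these data known. Positions come from GENCODE M21 on GRCm38 and promoters from RefSeq (GRCm38.p6). Alternatives covered scaling, pseudocount, filter, samples in the fit, sample weights and leaving out each library, and a fit without the RageHepKO libraries was added after the data were seen. Tables and plots were made in Python 3.11.15 (pandas 2.3.3, numpy 2.4.6, matplotlib 3.10.9).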

Additional observations from a re-analysis of the deposited data

How the results depend on the processing

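No call of a member changed direction. Sox4 kept its calls under all alternatives for HiAD against FFD and RageHepKO against HiAD, and lost them for HiAD against chow with the replicate block (adjusted p = 0.0825) and for PM without HiAD + PM library R19 (adjusted p = 0.065). Ly6d lost its PM call in 9 of 24 alternatives and gained one for RageHepKO against HiAD + PM with a pseudocount of 0.1 (adjusted p = 0.0424) and without chow library R2 (adjusted p = 0.0197). H19 and Golm1 had no call under any. The cause of these changes was not tested, other than fewer libraries or more genes where the alternative itself brings these.

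The number of genes called moved more. HiAD against FFD gave 376, 595 with the compared groups alone, 1139 with sample weights and 143 to 552 without a library. HiAD against chow gave 560, 998 by a constant sum without mitochondrial genes, 209 with the compared groups alone, 2380 with weights, 878 without the RageHepKO libraries and 207 to 884 without a library. With the replicate block it gave 63. The numbers shared by HiAD and chow libraries did not pair them (r of 0.04, -0.09 and -0.05), and no source ties them. FFD against chow gave 8, 19 as deposited, 5 and 3 with pseudocounts of 0.5 and 0.1, 5 with a filter on the mean, 5 with the compared groups alone, 536 with weights, 18 without the RageHepKO libraries and 2 to 16 without a library. HiAD + PM against HiAD gave 781, 1379 with the compared groups alone, 3109 with weights and 132 (without R19) to 1042 without a library. RageHepKO against HiAD gave 4044, 2571 with the compared groups alone and 2791 to 4470 without a library. RageHepKO against HiAD + PM gave 2275, 3609 by the constant sum, 1472 with no filter, 822 with the compared groups alone and 459 (without R19) to 2749 without a library.

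Scaling moved the share of called genes that were higher. By the constant sum without mitochondrial genes it was 65.6% beside 53.5% for HiAD against FFD, 81.9% beside 60.7% for HiAD against chow, 19.9% beside 47.0% for RageHepKO against HiAD and 11.8% beside 44.4% for RageHepKO against HiAD + PM. As deposited it was 74.6% for HiAD against chow, 52.6% beside 12.5% for FFD against chow, 22.0% for RageHepKO against HiAD and 12.4% for RageHepKO against HiAD + PM. The median of all genes shifted by up to -0.36 on the log2 scale. Where leaving out a library left HiAD + PM with 1, that sample was taken to vary like the other groups.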
